A study of Rattus norvegicus with 22 samples.

Results

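Bdnf, Ntf3, Ntrk2, Ntrk3, Ngfr, Sort1, Gdnf and Gfra1 make up a set of 8 genes for neurotrophins, their receptors and the GDNF pair, chosen by gene symbol. A table of 32883 genes held 7 of the 8, and Gfra1, which had no row under its symbol, was not analysed here. The table gave reads per gene from RNA of the ventral cervical spinal cord (C3 to C6) of 22 Sprague-Dawley rats aged 3 to 4 months, with 1 library for each rat. The rats formed 4 groups: 5 gonadectomized (GDX) males, 6 ovariectomized (OVX) females, and gonadally intact rats of both sexes (5 males, 6 females). All females, intact and OVX, were virgin. GDX and OVX rats received buprenorphine before surgery, and their tissue was collected 2 weeks after it. A sham operation of the intact rats is not described in the sources used here, so loss of the gonads and surgery with its analgesia cannot be told apart.

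BDNF and neurotrophin-3 bind the TrkB and TrkC kinases, made from Ntrk2 and Ntrk3, and all neurotrophins bind the p75 receptor made from Ngfr. Sortilin, made from Sort1, binds the uncleaved precursors and sorts them within the cell, while GDNF signals through Ret together with an anchored co-receptor. In the spinal cord these ligands act on motor neurons and on their inputs, and glia carry several of the receptors.

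Levels are in CPM, a gene's reads scaled to a common library size after TMM normalization, and because no gene lengths were used they are compared between rats. Where a list's gene with the most reads is named, the ranking is of reads and not of expression. All transcripts of a gene were summed, so full-length and truncated TrkB or TrkC were not separated. A count of 3 reads equalled 0.167 to 0.241 CPM depending on the library. Bdnf, Ntrk2, Ntrk3, Ngfr and Sort1 passed the filter on low counts in every comparison, whereas Ntf3 and Gdnf did not.

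**Figure D1:**
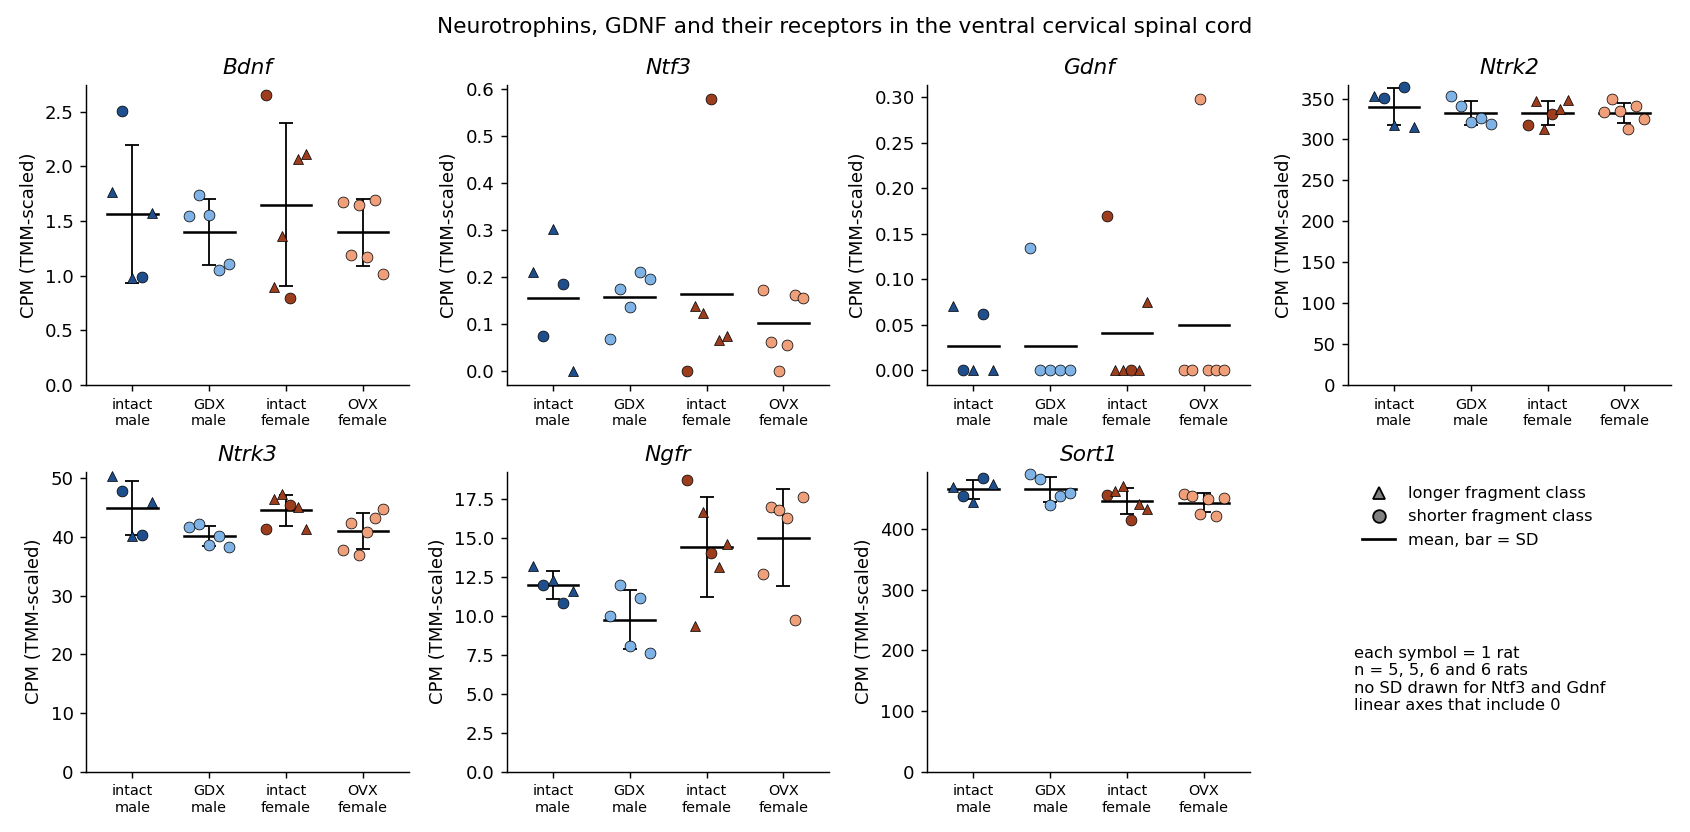
CPM of the 7 measured genes in each of 22 rats by group, with the mean and standard deviation of 5 of them. Triangles mark the 7 libraries of the longer fragment class.

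Bdnf, the ligand of TrkB, was counted with 11 to 47 reads in a library. In intact males Bdnf was at 1.76, 2.51, 0.981, 0.991 and 1.58 CPM in rats 1, 2, 3, 5 and 6. GDX males 1, 2, 4, 5 and 6 had 1.54, 1.74, 1.55, 1.06 and 1.11 CPM. Thus the GDX rats lay inside the span of the intact males, with rat 2 highest in both groups. Intact females ran from 0.797 CPM through a median of 1.72 to 2.65, and OVX females from 1.01 through 1.41 to 1.69. Here too the OVX rats fell within the intact span. Within groups Bdnf varied by 35.7% (coefficient of variation), where counting alone gives 21.0% at these depths. The log2 fold change was -0.15 after GDX (standard error 0.28) and -0.25 after OVX (standard error 0.28). The 95% interval of the ratio ran from 0.593 to 1.36 in males and from 0.556 to 1.27 in females, so neither a lower nor a higher level could be told from no difference.

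Ntf3, which encodes the ligand of TrkC, had 46 reads in all 22 libraries together and none in 3 of them. Reads were 3, 1, 4, 3 and 0 in the intact males and 1, 3, 2, 3 and 3 in the GDX males, so no rat stood apart. In intact females the reads ran from 0 through a median of 1.5 to 8, and in OVX females from 0 through 1.5 to 3. Intact female 4 alone gave the count of 8. Exact permutation tests over rats gave p 0.960 for GDX against intact males and 0.712 for OVX against intact females. Between the sexes the exact p was 0.952 in intact rats and 0.195 in rats without gonads.

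Gdnf, a survival factor for motor neurons, had 12 reads in all and was at 0 in 16 of 22 libraries. Intact males 1 and 5 had 1 read each, GDX male 1 had 2, intact females 1 and 6 had 3 and 1, and OVX female 3 had 4. By exact permutation p was 1 after GDX, 1 after OVX, 0.727 between intact males and females and 1 between GDX and OVX rats. At so few reads neither Ntf3 nor Gdnf could be compared beyond these counts.

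Ntrk2 gave 4161 to 5892 reads in a library and varied little, from 312 to 364 CPM over all 22 rats. Intact males 1, 2, 3, 5 and 6 had 353, 351, 317, 364 and 315 CPM, and GDX males 354, 341, 321, 326 and 318. Low and high rats were spread alike over both groups. For females the lowest, median and highest were 312, 334 and 348 CPM in intact and 313, 334 and 349 in OVX rats. Ratios were 0.974 after GDX (95% interval 0.903 to 1.05) and 1.00 after OVX (0.947 to 1.06), the narrowest intervals together with those of Sort1.

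Ntrk3, with 494 to 762 reads in a library, was at 50.4, 47.8, 40.2, 40.4 and 46.0 CPM in intact males 1, 2, 3, 5 and 6. In GDX males 1, 2, 4, 5 and 6 it was at 41.6, 42.2, 38.6, 40.2 and 38.3 CPM. Intact males 1, 2 and 6 stood above every GDX male, while 3 and 5 overlapped them. The GDX rat was the lower in 21 of 25 pairings of a GDX with an intact male. Intact females had 41.3 CPM at the lowest, 45.3 at the median and 47.3 at the highest, against 36.9, 41.7 and 44.8 in OVX females. OVX rats were the lower in 30 of 36 pairings, with 3 of them below all intact females and the others among them. Group means were 45.0 (intact males), 44.5 (intact females), 41.0 (OVX) and 40.2 CPM (GDX).

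Ngfr, counted with 117 to 331 reads, had 13.2, 11.95, 12.3, 10.8 and 11.6 CPM in the intact males. GDX males 1, 2, 4, 5 and 6 had 9.99, 11.9, 8.04, 11.1 and 7.63 CPM. GDX males 1, 4 and 6 lay below all intact males, and 2 and 5 lay among them. Intact females ranged from 9.33 CPM (rat 2) through a median of 14.3 to 18.7 (rat 1). OVX females ranged from 9.74 CPM (rat 5) through 16.5 to 17.6. Females were thus spread more widely than males, with the 2 female groups overlapping almost wholly. Males were the lower in 24 of 30 pairings of intact rats and in 27 of 30 pairings of GDX with OVX rats. Within groups Ngfr varied by 19.7%, against 7.17% from counting alone.

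Sort1 gave 5228 to 8327 reads and was at 470, 455, 444, 483 and 474 CPM in intact males and 490, 483, 440, 454 and 458 CPM in GDX males. GDX males reached slightly below and above the intact males, with 1 rat on either side. Intact females had a lowest, median and highest value of 414, 448 and 470 CPM, and OVX females of 421, 450 and 457. Males were the higher in 23 of 30 pairings of intact rats and in 24 of 30 pairings without gonads. In GDX against intact males the ratio was 0.997 (95% interval 0.937 to 1.06), and in OVX against intact females 0.993 (0.940 to 1.05).

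Each comparison was fitted over the whole table with edgeR, and a gene was called at an adjusted p under 0.1. The comparisons share samples: intact males serve as the control of GDX and as the males of the intact sexes, and intact females, GDX and OVX rats are shared in the same way. In GDX against intact males edgeR called 0 of the 5 tested neurotrophin genes (2 at unadjusted p under 0.05, 0 by DESeq2), where 13.4% of 14931 genes were called. In OVX against intact females it called 0 of 5 (1 at unadjusted p under 0.05, 0 by DESeq2), where 0.0335% of 14910 genes were called. Intact males against intact females gave 0 of 5 by edgeR (0 at unadjusted p under 0.05, 0 by DESeq2) and 4.01% of 14937 genes. GDX against OVX rats gave 0 of 5 by edgeR (1 at unadjusted p under 0.05, and 1 by DESeq2, Ngfr) and 0.232% of 15084 genes. For the difference between the GDX and OVX responses, edgeR called 0 of 5 (0 at unadjusted p under 0.05, 0 by DESeq2) and 0.116% of 15562 genes.

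**Figure D2:**
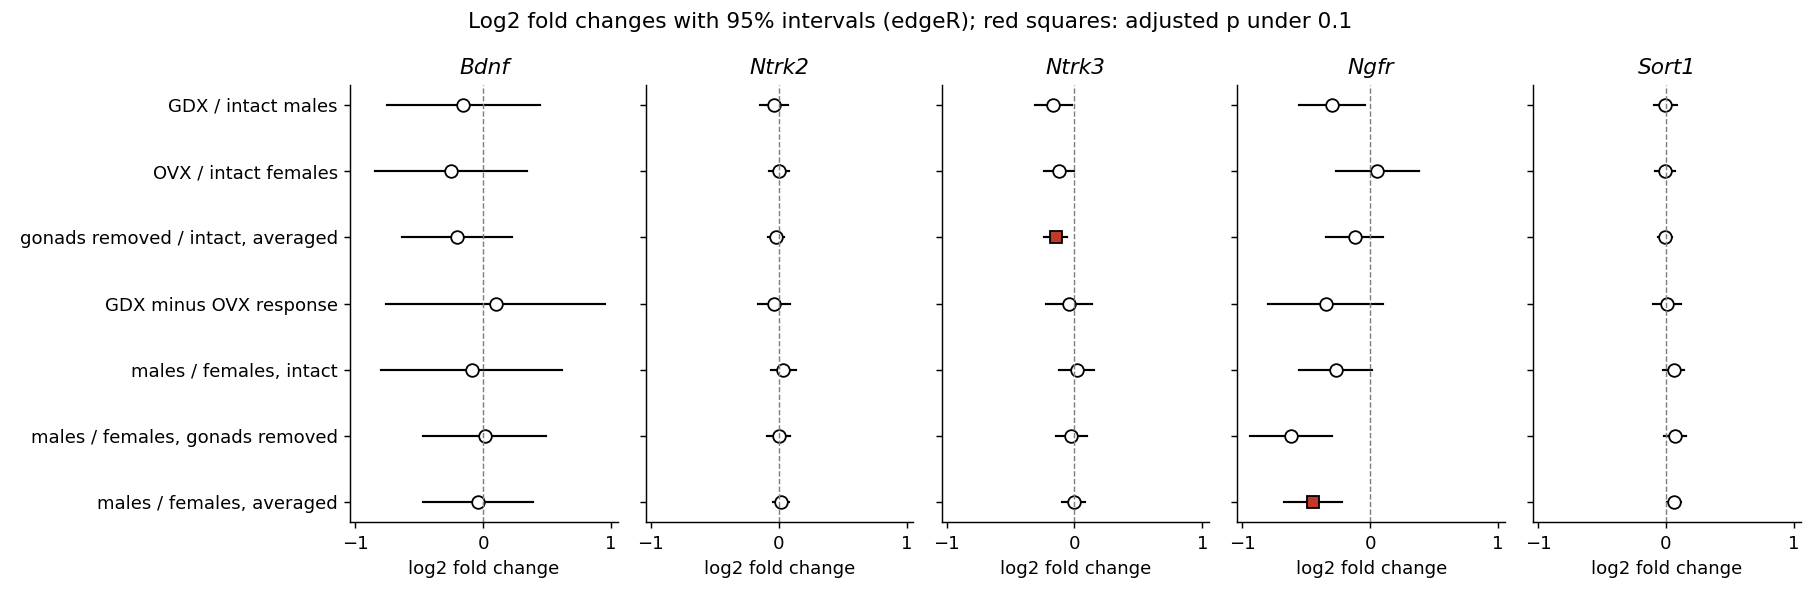
Log2 fold changes of 5 genes with 95% intervals in each comparison. Red squares mark the 2 calls at an adjusted p under 0.1.

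Ntrk3 had a log2 fold change of -0.17 after GDX (standard error 0.07, edgeR adjusted p 0.146) and of -0.12 after OVX (standard error 0.05, adjusted p 0.471). The GDX value over 18 alternatives kept its sign, with adjusted p from 0.0799 to 0.448. The difference between the sexes in the response was -0.04 (standard error 0.09, adjusted p 0.900). With both sexes in 1 fit, the effect of gonad removal averaged over them was -0.15 (standard error 0.04, edgeR adjusted p 0.0314), so Ntrk3 fell, to a ratio of 0.904 (95% interval 0.849 to 0.962). This averaged comparison was chosen after the data had been seen, and it called 1 of 5 neurotrophin genes against 16% of 15562 genes. All 22 rats enter it, the same as in the separate comparisons.

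Libraries differed in the average fragment size that the study tabulated, and 2 classes were formed from it. All 11 libraries of GDX and OVX rats were in the shorter class, to which only 4 intact libraries belonged (males 2 and 5, females 1 and 4). The 7 longer libraries all came from intact rats, so for these gonad state and fragment class cannot be told apart. With a class term in the fit the averaged Ntrk3 value was -0.11 (edgeR adjusted p 0.346), and within the 15 shorter libraries it was -0.11 (adjusted p 0.359). Over all 29 alternatives the value ran from -0.17 to -0.11 and the adjusted p from 0.0161 to 0.359, with a call in 27. Between longer and shorter libraries of intact rats Ntrk3 differed by 0.06 (standard error 0.07, edgeR adjusted p 0.911). That comparison gave 0 of 5 calls by edgeR (0 at unadjusted p under 0.05, 0 by DESeq2) and called 0% of 15723 genes, of which 1218 were at unadjusted p under 0.05 and 59 were called by DESeq2.

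Ngfr in males against females had a log2 fold change of -0.27 in intact rats (standard error 0.13, edgeR adjusted p 0.350) and of -0.62 in rats without gonads (standard error 0.15, adjusted p 0.197). For the latter DESeq2 gave -0.62 at an adjusted p of 0.0173, and the adjusted p over 17 alternatives ran from 0.0173 to 0.471. Averaged over the gonad states, again a comparison chosen after the data had been seen, the male level was lower (log2 fold change -0.45, standard error 0.11, edgeR adjusted p 0.0346). This is a ratio of 0.733 with a 95% interval of 0.627 to 0.857. The averaged comparison called 1 of 5 neurotrophin genes against 3.05% of 15562 genes. A class term left the value at -0.45 (adjusted p 0.0365), the 15 shorter libraries alone gave -0.57 (adjusted p 0.177), and over 29 alternatives the adjusted p ran from 0.00429 to 0.177 with a call in 28. After GDX the Ngfr log2 fold change was -0.30 (standard error 0.12, adjusted p 0.147), and after OVX it was 0.06 (standard error 0.15, adjusted p 0.947). The test of the difference between these responses gave -0.35 (standard error 0.22, adjusted p 0.561), and -0.44 to -0.09 over 29 alternatives, with -0.09 in the shorter class alone.

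Sort1 between males and females had a log2 fold change of 0.06 in intact rats (edgeR adjusted p 0.479), 0.07 without gonads (adjusted p 0.609) and 0.06 averaged (adjusted p 0.255). The averaged ratio was 1.05 with a 95% interval of 1.01 to 1.09. For Ntrk2 the averaged effect of gonad removal was a ratio of 0.986 (0.944 to 1.03) and for Sort1 0.993 (0.956 to 1.03).

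Genes around the 7 were grouped in 7 lists, with 65 of 66 genes in the table (Sorl1 was not). In GDX against intact males 5 of 58 tested were called, 2 higher and 3 lower, which is 8.62% of those tested and below the 13.4% of all genes. The receptor list beyond the named genes held 1 call of 5 tested, the p75 partners 1 of 8, the adaptors and effectors of Trk and Ret 1 of 21, and the activity and Trk response genes 2 of 10. By edgeR the other ligands had 0 of 2 (0 at unadjusted p under 0.05, 0 by DESeq2), the sortilin relatives 0 of 3 (2 at unadjusted p under 0.05, 1 by DESeq2) and the sorting and cleavage genes 0 of 9 (0 at unadjusted p under 0.05, 0 by DESeq2). In OVX against intact females edgeR called 0 of 57 (9 at unadjusted p under 0.05, 1 by DESeq2), against 0.0335% of all genes. The tested difference between the sexes in response likewise had 0 of 60 (4 at unadjusted p under 0.05, 0 by DESeq2), against 0.116%.

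Vgf, a secreted peptide precursor that BDNF induces, fell after GDX (log2 fold change -0.59, edgeR adjusted p 0.00984). It was at 16.2 to 18.3 CPM in intact and 8.73 to 14.8 CPM in GDX males, with no overlap. In OVX rats Vgf had -0.16 (adjusted p 0.689). Lingo1, a partner of p75 in the receptor for myelin inhibitors, fell by 0.27 after GDX (adjusted p 0.0221). Shc2, an adaptor of Trk receptors, fell by 0.26 (adjusted p 0.05001). After OVX Lingo1 had -0.08 (adjusted p 0.649) and Shc2 -0.23 (adjusted p 0.283). Gfra2, the neurturin co-receptor of Ret, rose by 0.33 after GDX (adjusted p 0.0424), and the early response gene Egr1 rose by 0.42 (adjusted p 0.0872). Their values after OVX were 0.10 (adjusted p 0.745) and 0.31 (adjusted p 0.427). Over 18 alternatives the GDX call was kept in 17 for Vgf, 17 for Lingo1, 13 for Gfra2, 7 for Shc2 and 6 for Egr1, and 0 values reversed. With a class term 2 of these 5 calls were kept, Vgf (-0.58, adjusted p 0.0750) and Lingo1 (-0.30, adjusted p 0.0919). With that term Gfra2 had 0.16 (adjusted p 0.437), Egr1 0.30 (adjusted p 0.428) and Shc2 -0.24 (adjusted p 0.230). In intact rats Gfra2 differed by -0.25 between longer and shorter libraries (adjusted p 0.371). Within the shorter class, where only 2 intact males remain, 0 were kept by edgeR, with Vgf at -0.58 (adjusted p 0.121) and Lingo1 at -0.30 (adjusted p 0.142).

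**Figure D3:**
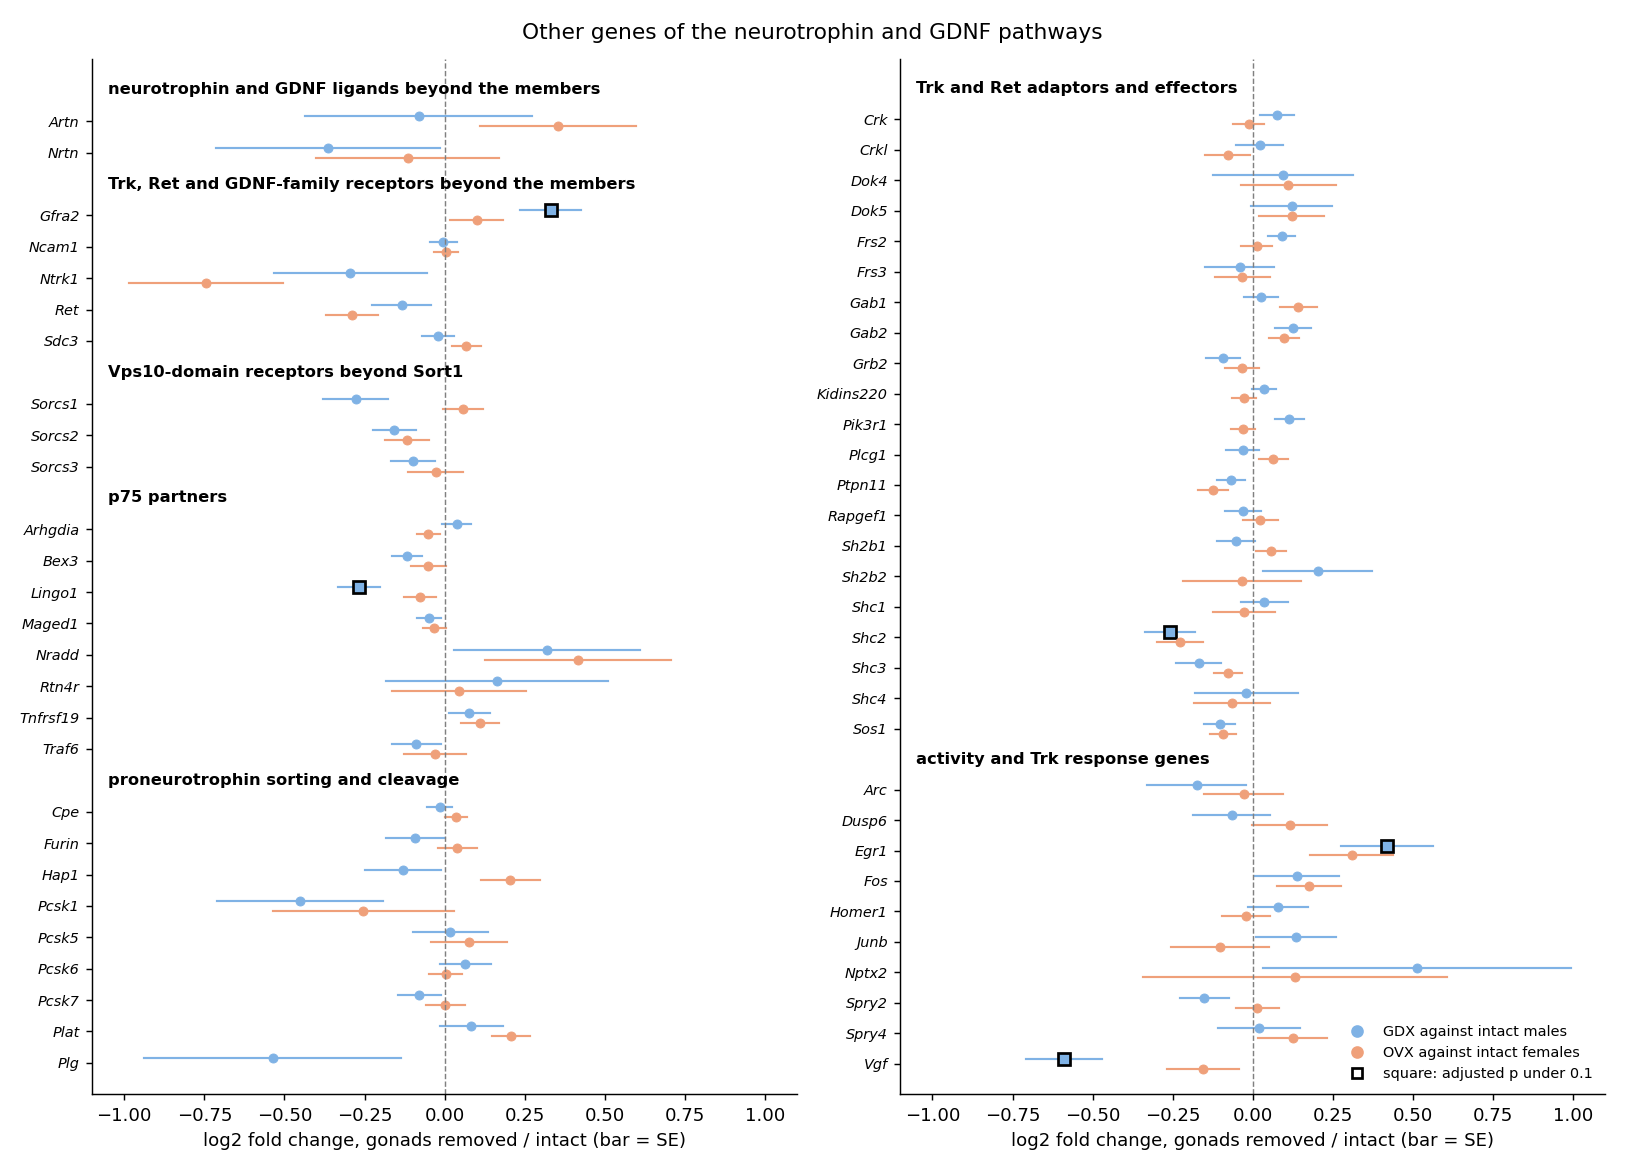
Log2 fold changes with standard errors after GDX and after OVX for genes of the 7 lists. Squares mark the 5 calls, all after GDX.

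Averaged over the sexes, 12 of 60 pathway genes were called with gonad removal, 3 higher and 9 lower, which is 20% against 16% of all genes. Among them were Shc2 (-0.25, edgeR adjusted p 0.00339), Vgf (-0.38, adjusted p 0.00683) and Lingo1 (-0.17, adjusted p 0.00681), which fell together with the Ras activator Sos1 (-0.10, adjusted p 0.0313). Egr1 (0.36, adjusted p 0.0155), Gfra2 (0.21, adjusted p 0.0283) and the docking protein gene Gab2 (0.11, adjusted p 0.0526) rose. A class term left 1 call, Shc2 (-0.23, adjusted p 0.0898). With that term the uncalled values were 0.29 for Egr1 (adjusted p 0.249), -0.15 for Lingo1 (adjusted p 0.148), -0.30 for Vgf (adjusted p 0.180) and -0.05 for Sos1 (adjusted p 0.534). Gfra2 had 0.06 (adjusted p 0.737) and Gab2 0.08 (adjusted p 0.452). The shorter libraries alone left 0 calls, with these 7 genes at the same values to 2 decimals except -0.29 for Vgf. Between the sexes averaged over gonad states 1 of 60 was called, the early response gene Fos, at 0.30 (adjusted p 0.0550), which is 1.67% against 3.05% of all genes. The Fos call was kept in 24 of 29 alternatives, with adjusted p from 0.0250 to 0.388. Intact males against intact females gave 0 of 58 by edgeR (6 at unadjusted p under 0.05, 1 by DESeq2), against 4.01% of all genes. GDX against OVX rats gave 0 of 58 (5 at unadjusted p under 0.05, 1 by DESeq2), against 0.232%.

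Markers of 11 cell types were read in the same fits, and in such bulk tissue fewer cells of a type and less RNA per cell cannot be told apart. Of 13 motor neuron markers 12 had reads in every library, among them Chat at a mean of 40.1 CPM and Nefh, with the most reads of the list, at 4491 CPM, while Mmp9 was at 0 in 4 libraries. Of 11 dorsal horn markers 7 had reads in every library, with the most for Penk (39.1 CPM). Tlx3 was at 0 in 11, Grp in 9, Tac3 in 9 and Lmx1b in 1 of 22 libraries.

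In GDX males, where the Ntrk3 and Vgf means were lowest, 6 of 12 genes of neurons in general fell (median log2 fold change -0.20; Map2 had the most reads), where 13.4% of all genes were called. Their summed level was 4493, 4403, 4364, 4328 and 4679 CPM in intact and 3966, 4063, 4011, 3557 and 4110 CPM in GDX males. The 2 groups did not overlap, and GDX male 5 was the lowest. In females the lowest, median and highest sums were 4170, 4216 and 4268 CPM intact and 3811, 4009 and 4261 CPM after OVX, which overlapped, with 0 of 12 called by edgeR (3 at unadjusted p under 0.05, 2 by DESeq2).

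Of 12 tested motor neuron genes 3 fell after GDX (median -0.24, against 13.4% of all genes called) and 0 were called by edgeR after OVX (median -0.31, 7 at unadjusted p under 0.05, 2 by DESeq2). Averaged over the sexes 6 of 12 general neuron genes and 5 of 12 motor neuron genes fell. This was the same comparison as for Ntrk3, where 16% of all genes were called. In that comparison DESeq2 called 7 general neuron, 5 motor neuron, 11 meningeal, 9 endothelial, 7 astrocyte, 5 pericyte, 4 oligodendrocyte and 3 precursor genes. It also called 2 genes of dorsal horn neurons, 1 of microglia and 0 of Schwann cells. The 16% is the share called by edgeR, and the DESeq2 share over all genes is not given here. Nefh, at a mean of 4491 CPM, made up most of the motor neuron sums. These sums were 5181, 4580, 5749, 4774 and 7257 CPM in intact and 4695, 4816, 4083, 4345 and 4905 CPM in GDX males. Intact females had 4484, 5853 and 6232 CPM as lowest, median and highest and OVX females 4092, 4583 and 5446. All 12 motor neuron genes had a positive sign in longer against shorter libraries of intact rats (median 0.38). Ache, Lhx4 and Isl2 lay below their standard errors there. Of the 12, 0 were called by edgeR (9 at unadjusted p under 0.05, 2 by DESeq2), as were 0% of all genes. Other neuronal genes had the opposite sign there, among them Penk (-0.55, edgeR adjusted p 0.102), Sst (-0.63, adjusted p 0.318), Gad2 (-0.56, adjusted p 0.318) and Syt1 (-0.47, adjusted p 0.318). Of the dorsal horn list 1 of 6 tested and of general neurons 6 of 12 were positive, with 2 and 1 called by DESeq2. The part of these markers in the Ntrk3 result was not tested.

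Beside the sex difference of Ngfr, 2 of 8 tested genes of Schwann cells and roots and 5 of 11 of meninges and fibroblasts (median -0.68) were lower in males averaged over gonad states, where 3.05% of all genes were called. DESeq2 called 3 Schwann and 7 meningeal genes, while the 3.05% is the edgeR share and the DESeq2 share over all genes is not given here. Schwann sums, in which Mal had the most reads, were 543, 496, 534, 548 and 586 CPM in intact and 598, 571, 641, 603 and 618 CPM in GDX males. Intact females had 547, 571 and 664 CPM as lowest, median and highest, and OVX females 558, 599 and 632. Meningeal sums, with the most reads from Col1a1, were 203, 139, 142, 94.6 and 71.8 CPM in intact and 193, 308, 444, 594 and 476 CPM in GDX males. The corresponding female values were 148, 342 and 472 CPM intact and 290, 379 and 509 after OVX. So the medians of both sums were lowest in intact males, whereas that of Ngfr was lowest in GDX males. No defining marker of either list was at 0 in every library, and Egr2, at 0 in 2 libraries, and Sox10 of the Schwann list are held by other lists as well. The part of these markers in the Ngfr result was not tested.

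**Figure D4:**
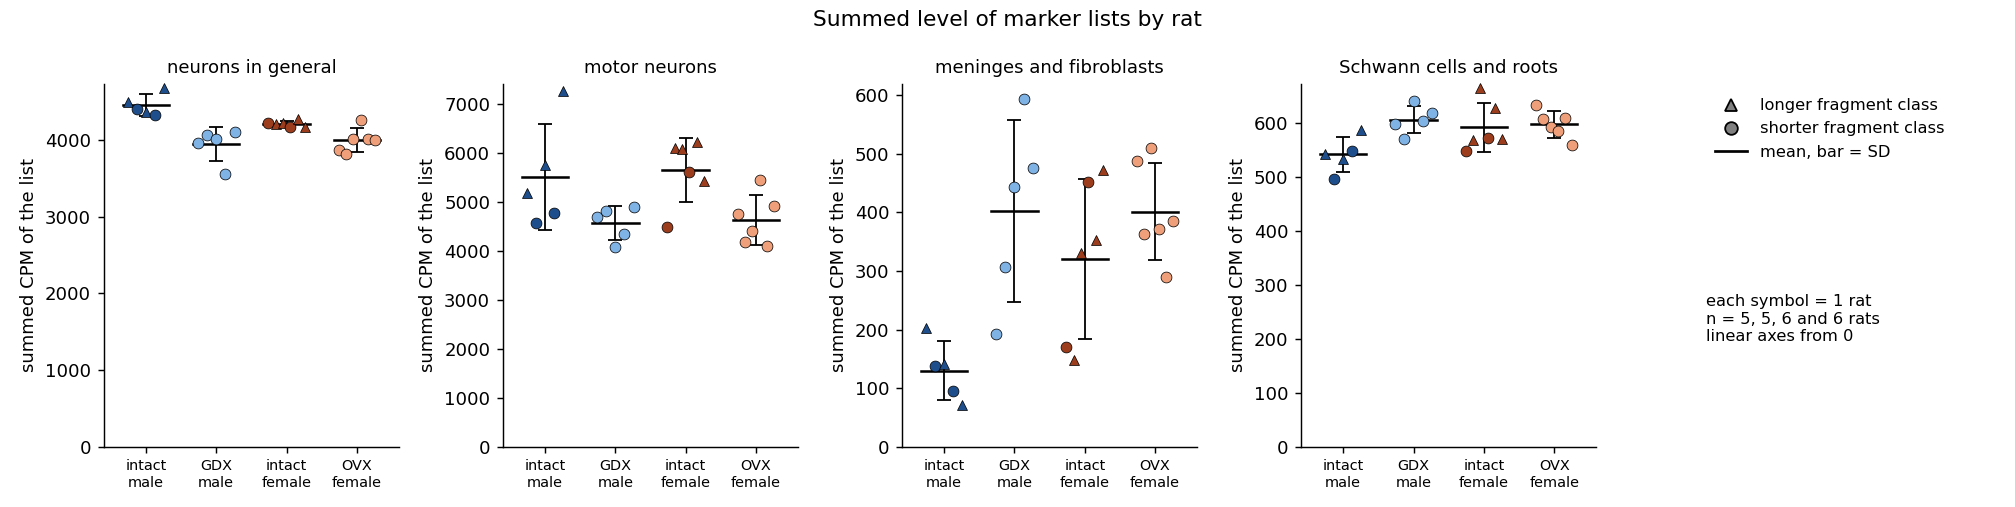
Summed CPM of 4 marker lists in each of 22 rats by group. General neuron sums of the 5 GDX males lie below those of the 5 intact males.

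After GDX the other lists had calls in 11 of 11 meningeal genes (all higher, median 1.70), 8 of 9 endothelial genes (all higher), 4 of 9 of pericytes and smooth muscle (higher) and 2 of 8 Schwann genes (higher; 0 by DESeq2), where 13.4% of all genes were called. Astrocytes had 4 of 11 (3 higher), oligodendrocytes 2 of 10 (higher) and oligodendrocyte precursors 2 of 7 (1 higher). DESeq2 called 11 meningeal, 8 endothelial, 5 pericyte, 4 astrocyte, 3 oligodendrocyte and 2 precursor genes. Microglia had 0 of 9 by edgeR (1 at unadjusted p under 0.05, 1 by DESeq2) and dorsal horn neurons 0 of 5 (1 at unadjusted p under 0.05, 0 by DESeq2). After OVX the endothelial list had 2 calls of 9, both higher (3 by DESeq2), where 0.0335% of all genes were called, and every other list had 0 by edgeR. Of these lists DESeq2 called 1 gene each of astrocytes, oligodendrocyte precursors and pericytes, at 3, 2 and 3 genes with unadjusted p under 0.05. It called 0 for meninges, Schwann cells, oligodendrocytes, microglia and dorsal horn neurons, at 0, 2, 1, 3 and 1 genes with unadjusted p under 0.05. The 13.4% and 0.0335% are shares called by edgeR, and the DESeq2 shares over all genes are not given here.

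To describe which rats moved together, log2 CPM was centred within groups and correlated over the 22 rats, for 10 pairs among the 5 genes, 55 pairs of a gene with a list and 15561 other genes per gene. Each list entered as the mean of the centred values of its genes that passed the filter. These r values are descriptions over rats that share groups and library preparation. Among the 5 genes r ran from -0.192 to 0.243. Without the 2 rats farthest from the median of the first gene of a pair, the highest were 0.321 for Ngfr with Ntrk3 and 0.291 for Ngfr with Sort1. In pairs with a list the 2 farthest rats left out were those of the list, and with Hivep3 those of Sort1. Rats that were extreme only in the other value of a pair stayed in. Sort1 followed the oligodendrocyte precursor list (Pearson 0.742, Spearman 0.741, 0.601 without the 2 farthest rats) and the pericyte list (0.694, Spearman 0.770, 0.778 without 2). Within the 15 shorter libraries these were 0.848 and 0.924, and the 2 lists share Cspg4. Of all genes Sort1 was most like Hivep3 (0.878, Spearman 0.8295, 0.860 without 2), Myo9b (0.869) and Myrf (0.858), the last a regulator of myelin genes from the oligodendrocyte list, with which as a whole Sort1 had 0.233. With endothelium Sort1 had 0.560, with meninges -0.498 and with the Schwann list -0.469. Bdnf had -0.533 with the astrocyte list (-0.378 without the 2 farthest rats), -0.480 with microglia (-0.424 without 2) and 0.430 with general neurons (0.446 without 2), and it was most like Tex10 (0.794). Ntrk2 had -0.473 with the motor neuron list (-0.197 without 2) and 0.462 with general neurons (0.224 without 2). Ntrk3 had 0.233 with general neurons (0.184 without 2). Ngfr had -0.0232 with the Schwann list (-0.105 without 2), 0.223 with meninges (0.0502 without 2) and 0.424 with endothelium (0.593 without 2).

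**Figure D5:**
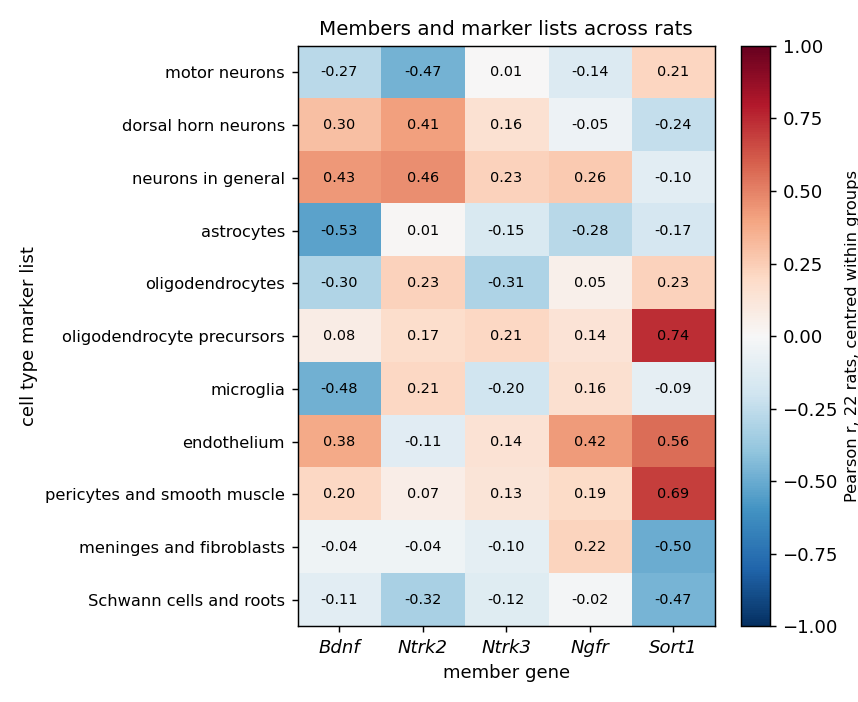
Pearson r over 22 rats of 5 genes with the mean over the genes of each of 11 marker lists, in log2 CPM centred within groups. The largest is 0.742, of Sort1 with oligodendrocyte precursors.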

How the data were processed

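The authors deposited raw read counts per Ensembl gene, with the symbol in the same column. The paper names Trimmomatic, Hisat2 and featureCounts on Rnor_6.0, while the processing notes of the labels name TopHat2 2.0.13 in place of Hisat2. The paper names a SMARTer kit and the labels TruSeq protocols; strand and multi-mapping settings are not given in the sources used here. Columns written "Inact" were read as intact males. Reads counted to genes numbered 12371756 to 17571887 in a library; without molecular identifiers, intervals cover counting error and the spread between rats only. Genes passing filterByExpr were fitted with edgeR 4.0.16 (TMM, quasi-likelihood, Benjamini-Hochberg over all tested genes, adjusted p under 0.1) in R 4.3.3. DESeq2 1.42.0 served as an alternative, and Ntf3 and Gdnf had exact permutation tests. Pathway genes are named where called, at most 4 higher and 4 lower, taken by smallest p. Members and lists were chosen with earlier results of these data known. The 2 averaged comparisons were added after the data had been seen. Further alternatives were other filters and scalings, a fragment class term, the shorter class alone, a replicate block and leaving out each rat. Figures used matplotlib 3.10.9.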

Additional observations from a re-analysis of the deposited data

Results flagged for a closer look

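Each of 44 sets of values of a group was searched for a rat that stood far from the others, by a gap rule that flags a set without such a rat by chance in 1 of 20, so about 2 of 44 would be flagged so, and 4 values were. For Gdnf that chance does not apply, since with all other rats of the group at 0 any read is flagged. Gdnf in GDX male 1 was at 0.134 CPM, from 2 reads, with the other GDX males at 0. Gdnf in OVX female 3 was at 0.299 CPM, from 4 reads, with the other OVX females at 0. Ntf3 in intact female 4 was at 0.580 CPM, from 8 reads, with the others at 0 to 0.138 CPM. The summed level of neurons in general in GDX male 5 was 3557 CPM, with the other GDX males at 3966 to 4110 CPM. Whether these values come from the rats or from the libraries was not tested.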

How the results depend on the processing

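The direction and call status of the 5 tested neurotrophin genes were the same in 258 values under alternatives that left out no single rat, while 13 reversed, 3 lost a call and 1 gained it. With 1 rat left out 538 were the same, 62 reversed and 5 gained a call. For the named pathway genes 65 values kept their call and 31 lost it under the former, and 207 kept and 19 lost it with 1 rat left out, with 0 reversed. Values that reversed were uncalled, and the cause of each shift below was not tested. After GDX the calls numbered 1264 at the stricter threshold of 0.05, 796 with a fragment class term and 440 within the shorter class. After OVX the counts were 174 by DESeq2, 11 without the filter, 1 at the stricter threshold, 3 with the class term and 9 with all 22 rats in 1 fit. Reversed OVX values were Ntrk2 -0.0021 (no filter) and -0.0031 (22-rat fit), Ngfr -0.13 with the class term and -0.13 in the shorter class, and Sort1 0.026 and 0.022 in these. For intact males against intact females 333 genes were called at the stricter threshold and 34 in the shorter class. GDX against OVX rats gave 130 by DESeq2, with Ngfr as 1 neurotrophin gene, and 61 in the 22-rat fit, and Ntrk2 reversed to 0.00053 (DESeq2), 0.00028 (RLE scaling) and 0.0043 (no filter). The difference between the responses had 243 by DESeq2, 33 without the filter, 2 at the stricter threshold, 6 with the class term and 5 in the shorter class, where Sort1 was -0.037. Longer against shorter libraries gave 59 by DESeq2 and 210 without the filter. Gonad removal averaged over the sexes had 662 calls with the class term and 296 in the shorter class, each with 0 neurotrophin genes and with Sort1 at 0.0033 and 0.0032. Males against females averaged had 239 at the stricter threshold and 39 in the shorter class, there with 0 neurotrophin genes.

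With each rat left out in turn, calls ran from 1202 (without GDX male 5) to 2446 (without GDX male 1) after GDX, 0 to 113 after OVX, 352 to 777 between intact sexes, 23 to 44 between GDX and OVX rats, 1 to 275 for the difference between responses and 0 to 1 for fragment class. Neurotrophin genes called ran from 0 to 1 after GDX, between intact sexes and between GDX and OVX rats. Log2 fold changes that crossed 0 ran as follows: after GDX Bdnf -0.29 to 0.076 and Sort1 -0.022 to 0.015, and after OVX Ntrk2 -0.016 to 0.019, Ngfr -0.044 to 0.15 and Sort1 -0.033 to 0.0056. Between intact sexes Bdnf ran from -0.32 to 0.11 and Ntrk3 from -0.028 to 0.055, and between GDX and OVX rats Bdnf from -0.080 to 0.095, Ntrk2 from -0.021 to 0.016 and Ntrk3 from -0.052 to 0.00046. For the difference between responses Bdnf ran from -0.095 to 0.33, Ntrk3 from -0.080 to 0.0042 and Sort1 from -0.0065 to 0.029. For fragment class Bdnf ran from -0.46 to 0.17, Ngfr from -0.18 to 0.044 and Sort1 from -0.015 to 0.044. Averaged over gonad states Bdnf ran from -0.16 to 0.057 and Ntrk3 from -0.030 to 0.012, and averaged over the sexes Sort1 from -0.019 to 0.0034. The 2 calls, Ntrk3 with gonad removal and Ngfr between the sexes, were kept in 22 of 22 of these fits. Rats of the same number in different groups had correlations from -0.114 to 0.0626, with 0 pairs over 0.1, so the main fits do not pair them. A fit with the rat number as replicate block called 1274 genes after GDX, 0 after OVX, 255 between intact sexes and 0 for the difference between responses, with Ntrk2 at 0.0028 between GDX and OVX rats. Depth limits Ntf3 and Gdnf, at 0 to 8 and 0 to 4 reads in a library.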
